A study of Mus musculus with 12 samples.

Results

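Severe cold was set against mild cold in the interscapular brown fat of the mouse: 4 libraries from mice kept at 6 °C against 4 libraries from mice kept at 22 °C, chosen by their temperature alone, of 12 libraries in all. Per the labels, every mouse was a wild-type C57BL/6J mouse of 14 weeks that had lived at its temperature since 10 weeks of age, and each library holds the RNA of 1 mouse. The 6 °C group is labelled severe cold and the 22 °C group is the usual temperature of an animal room, which is mild cold for a mouse. The other 4 libraries come from mice at 30 °C, labelled thermoneutral, and serve here for the spread between mice and for the earlier step from 30 to 22 °C. The question is what severe cold added to the room temperature state and what it turned back. The labels give neither the sex of the mice nor how they were housed, and the mice of a group may have shared cages.

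Brown fat makes heat by letting protons flow back into the mitochondrial matrix through the uncoupling protein UCP1. Noradrenaline from sympathetic nerves raises cAMP in the brown adipocyte, which releases fatty acids from lipid droplets as fuel and switches on thermogenic genes. Over weeks in the cold the tissue also takes up more glucose, makes new fatty acids, builds mitochondria and vessels, and recruits new cells.

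All 38924 genes of the deposited table were considered, and 14870 passed the filter on low counts and were tested. Library totals were 18290162 to 32513051 counts except for 22 °C mouse 3 at 86438386, whose library code also lies outside the run of the other codes. Genes of the mitochondrial genome took 19.2 to 21.7% of the counts at 22 °C and 17.3 to 21.1% at 6 °C. The labelled tissue was checked by its markers: the summed level of the 12 brown adipocyte markers was 7588 to 10170 CPM (counts scaled to a common library size) at 22 °C and 14827 to 17416 CPM at 6 °C. Ucp1 made up most of that difference: 3 of the 12 markers were called higher and 3 lower, with a median log2 fold change of -0.05. Skeletal muscle, which borders the depot, left RNA in uneven amounts. The mean log2 CPM of 21 muscle markers was 4.59 to 6.58 at 22 °C, and at 6 °C it was 5.62, 3.36, -0.50 and 5.31 in mice 1 to 4. Of these markers 0 of 21 were called at an adjusted p under 0.05 by the quasi-likelihood test of edgeR (Benjamini-Hochberg adjustment), and the most abundant, the myosin gene Myh4, ranged from 1.34 to 484 CPM within the 6 °C group. The part of muscle RNA in the results was not tested beyond the values given with the alternatives.

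Between 22 and 6 °C, 5091 of the 14870 tested genes (34.2%) were called at an adjusted p under 0.05, 2511 of them higher at 6 °C (16.9%) and 2580 lower (17.4%). Of these, 720 were higher at least 2-fold (4.84% of tested genes) and 606 lower at least 2-fold (4.08%). The median log2 fold change of all tested genes was -0.03. With total counts as the only scaling, 1996 were higher and 3088 lower. In the following, a gene is said to have risen or fallen only where it was called, a log2 fold change is 6 °C minus 22 °C and stands with its standard error, and levels are CPM in mice 1 to 4 of a group. The counts of a gene list are read against 16.9% higher and 17.4% lower among all genes. All 6 °C libraries lay above all 22 °C libraries for 17.8% of tested genes and below them for 17.1%. Genes named for the largest changes or smallest p were admitted only without such overlap. In bulk tissue, fewer cells of a type and less RNA per cell cannot be told apart.

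**Figure D1:**
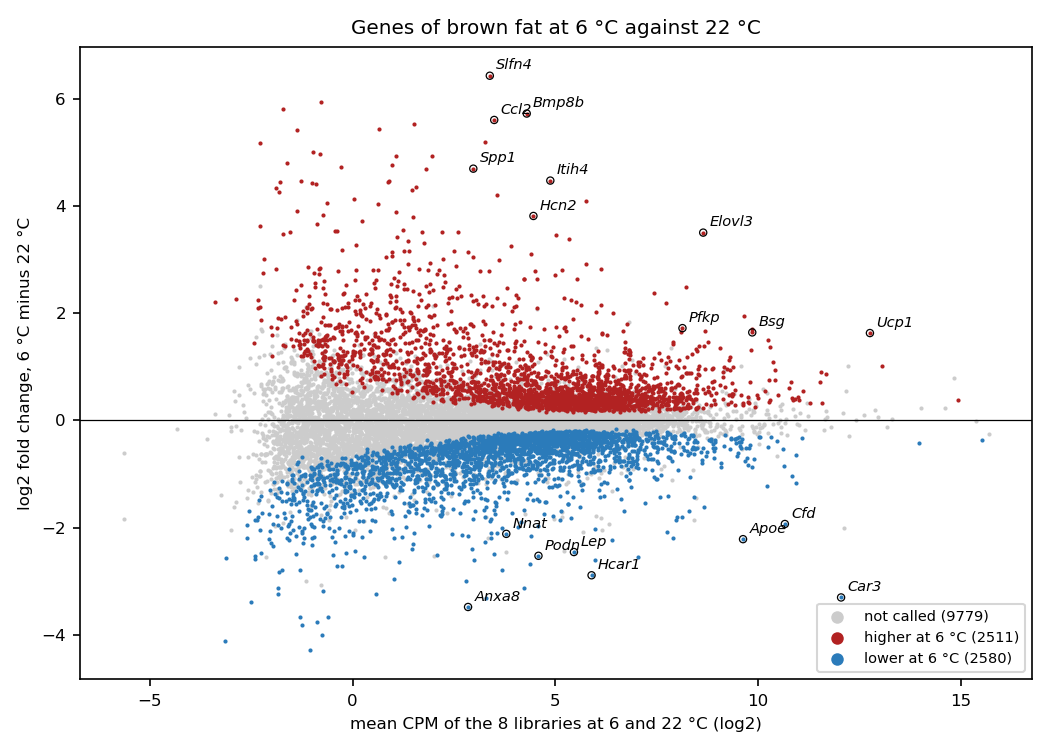
Log2 fold change (6 °C minus 22 °C) of 14870 tested genes against the log2 of their mean CPM over the 8 libraries, with genes called higher in red and lower in blue. Genes called in both directions lie at all levels, from Slfn4 at 6.43 to Anxa8 at -3.48, and Ucp1 and Car3 stand at the right among the most abundant called genes.

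**Figure D2:**
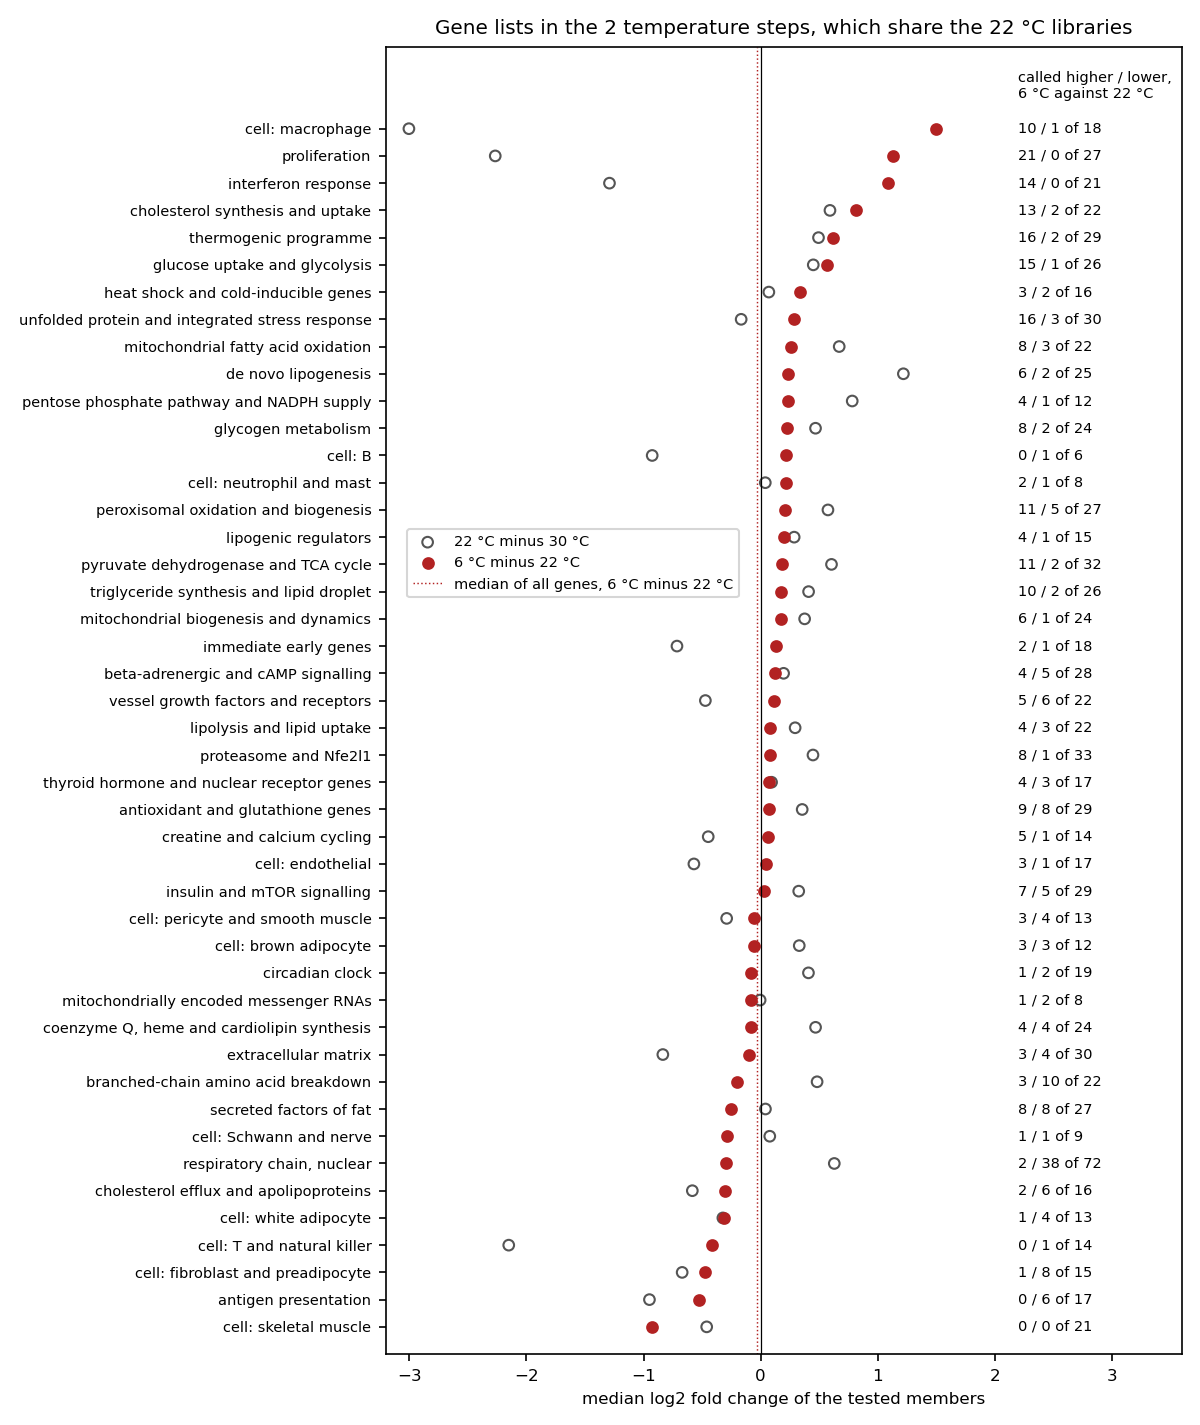
Median log2 fold change of the tested members of 45 gene lists, 6 °C minus 22 °C (filled) and 22 °C minus 30 °C (open), with the counts of members called higher and lower at 6 °C against 22 °C at the right. Both steps use the 22 °C libraries; macrophage, proliferation and interferon lists lie left of 0 in the first step and right of 0 in the second, and the nuclear respiratory chain lies on the opposite sides.

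Many genes of the thermogenic programme rose in severe cold. Ucp1 stood at 4461, 3775, 1967 and 3288 CPM at 22 °C and at 10300, 9654, 11950 and 9846 CPM at 6 °C. Every 6 °C library was above every 22 °C library, and the gene rose 3.1-fold (log2 fold change 1.63, SE 0.31, adjusted p = 0.0021). Elovl3, a marker of active brown fat whose enzyme lengthens very long fatty acids, was at 105, 47.9, 51.8 and 54.3 CPM at 22 °C and at 593, 807, 706 and 832 CPM at 6 °C. It rose 11.3-fold (log2 fold change 3.50, SE 0.31, adjusted p = 2.7e-05). Bmp8b encodes a secreted factor of the BMP family made by thermogenic adipocytes. It was nearly silent at 22 °C, at 0.346, 0.179, 1.29 and 0.484 CPM, and reached 18.5, 63.2, 19.5 and 53.3 CPM at 6 °C. Mice 2 and 4 were thus about 3 times as high as mice 1 and 3, and all 4 lay above the 22 °C range (log2 fold change 5.72, SE 0.63, adjusted p = 1.2e-04).

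Of 29 tested thermogenic genes, 16 rose and 2 fell, with a median log2 fold change of 0.61. Besides those above, Gk, glycerol kinase, rose by 1.66 (SE 0.26) on the log2 scale, Adcy10, the soluble adenylyl cyclase, by 2.64 (SE 0.34), the proton channel gene Otop1 by 0.89 (SE 0.12) and the coactivator gene Ppargc1a by 0.92 (SE 0.23). Kcnk3, a potassium channel gene, rose by 0.62 (SE 0.10). The 16 that rose were 12 without 6 °C mouse 1 or 3. In the step from 30 to 22 °C, 15 of the 29 were higher and 2 lower, against 21.8% and 22.8% of all genes. Without 30 °C mice A and B, whose mouse numbers are not known, that step had 9 higher and 2 lower. Dio2, which makes active thyroid hormone in the cell, stood at 70.6, 115, 114 and 222 CPM at 22 °C and 247, 443, 427 and 219 CPM at 6 °C. The ranges overlapped through 22 °C mouse 4 and 6 °C mouse 4, and Dio2 was not called (1.36, adjusted p = 0.057). It was called in 5 alternatives, with an adjusted p of 0.0189 with DESeq2, 0.0316 with limma voom, 0.0319 without robust estimation, 0.0356 on the 8 libraries alone and 0.0317 without 22 °C mouse 4. Prdm16, a regulator of brown fat identity, was not called (0.25, adjusted p = 0.41). Cidea, a droplet protein gene of brown fat, fell slightly (log2 fold change -0.33, SE 0.12, adjusted p = 0.047), a call lost without any one of 6 of the 8 libraries (adjusted p of 0.0648 to 0.148 without 22 °C mouse 2 or 4 or any 6 °C mouse).

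Among 28 genes of beta-adrenergic and cAMP signalling 4 rose and 5 fell, close to the shares of all genes; without 6 °C mice 1 and 4 it was 4 and 1. Adcy3, an adenylyl cyclase, stood out in size: 91.6, 62.0, 72.0 and 80.3 CPM at 22 °C and 312, 408, 373 and 305 CPM at 6 °C (log2 fold change 2.19, SE 0.13, adjusted p = 8.5e-07). Of its exons 22.1% lie under a gene on the other strand, and reads of the pair cannot be told apart here. Prkar1a, a regulatory subunit of protein kinase A, rose by 0.42 (SE 0.07) and Pde4d, which breaks down cAMP, by 0.66 (SE 0.13). The receptor gene Adrb3 stood at 288 to 595 CPM at 22 °C and 355 to 512 CPM at 6 °C (log2 fold change -0.02, adjusted p = 0.95). Hcn2, a channel gated by cyclic nucleotides, was at 4.01, 1.43, 3.04 and 3.04 CPM at 22 °C and at 34.6, 44.5, 40.1 and 45.1 CPM at 6 °C. It rose 14.1-fold (log2 fold change 3.81, SE 0.23, adjusted p = 1.7e-06). Hcn2 lies just downstream of Bsg, described next, on the plus strand of chromosome 10 (GRCm38, Bsg at 79704491 to 79711969 and Hcn2 at 79716634 to 79736108). Of 17 genes of thyroid hormone and nuclear receptors 4 rose and 3 fell, among them the coactivator Ncoa1 (0.58, SE 0.10) and the orphan receptor Nr2f2 (-0.53, SE 0.07).

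Many genes of glucose use rose. Of 26 genes of glucose uptake and glycolysis 15 rose and 1 fell (median log2 fold change 0.57). Bsg encodes basigin, the partner that brings lactate transporters to the cell surface. Its level was 463, 443, 437 and 450 CPM at 22 °C and 1312, 1514, 1409 and 1366 CPM at 6 °C, with little spread in either group (log2 fold change 1.64, SE 0.08, adjusted p = 2.2e-07). Pfkp, a phosphofructokinase gene, was at 138, 147, 122 and 115 CPM at 22 °C and at 393, 392, 469 and 468 CPM at 6 °C (1.72, SE 0.10, adjusted p = 8.5e-07). Slc16a7, which encodes the monocarboxylate carrier MCT2, went the other way, from 14.0, 16.5, 19.9 and 12.6 CPM to 3.21, 3.28, 2.83 and 3.88 CPM (-2.26, SE 0.16, adjusted p = 2.8e-06). The glucose transporter genes were not called, with log2 fold changes of 0.45 for Slc2a1 (adjusted p = 0.053) and 0.12 for the insulin-regulated Slc2a4 (adjusted p = 0.59). Slc2a1 was called in 5 alternatives, at an adjusted p of 0.0294 (DESeq2) to 0.0413 (RLE scaling), among them the fit without 6 °C mouse 2 (0.0355).

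Glycogen genes changed in part. Of 24, 8 rose and 2 fell; the 8 were 5 without 22 °C mouse 2 or without 6 °C mouse 4, and 4 without 6 °C mice 1 and 4. The synthase gene Gys2 rose by 1.32 (SE 0.18) and Ugp2, which makes UDP-glucose, by 1.24 (SE 0.18), while Pygb, a glycogen phosphorylase gene, fell from 132, 125, 185 and 139 CPM to 77.9, 78.3, 77.9 and 76.2 CPM. Among NADPH-supplying genes, with the pentose phosphate pathway, 4 of 12 rose and 1 fell. The dehydrogenase genes Pgd and G6pdx rose by 1.32 (SE 0.20) and 0.89 (SE 0.11), and Pgls, the lactonase between them, fell by 0.62 on the log2 scale (SE 0.10).

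The main enzymes of fatty acid synthesis, already abundant at 22 °C, were not called with the spread estimated over 3 temperatures. Fasn, fatty acid synthase, stood at 27660, 19210, 19700 and 17880 CPM at 22 °C and 35800, 30370, 38030 and 42240 CPM at 6 °C. The ranges did not overlap, but the fitted difference of 0.79 on the log2 scale had an SE of 0.46 (adjusted p = 0.21). Acly stood at 1.01 (adjusted p = 0.10), Acaca at 0.58 (adjusted p = 0.24) and the desaturase Scd1 at -0.01 (adjusted p = 0.98). Fitted on the 8 compared libraries alone, Fasn (0.79, adjusted p = 0.0031), Acly (1.01, adjusted p = 0.043) and Acaca (0.58, adjusted p = 0.0068) were called higher. Of 25 genes of de novo lipogenesis 6 rose and 2 fell. Those that rose included enzymes of chain elongation: Elovl6 (1.10, SE 0.30), Hacd2 (0.99, SE 0.09) and Hsd17b12 (0.90, SE 0.10), besides Elovl3. The call of Elovl6 was lost without 6 °C mice 1 and 4 (adjusted p = 0.0783).

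Of 15 lipogenic regulators 4 rose and 1 fell, but 1 rose without 22 °C mouse 4, 2 without 6 °C mouse 2, and 0 with the muscle marker level in the model. The gene that fell was Srebf1, a master regulator of lipogenic genes, from 350 to 611 CPM at 22 °C to 262 to 360 CPM at 6 °C. The ranges overlapped (log2 fold change -0.58, SE 0.18, adjusted p = 0.027), and the call was lost without 22 °C mouse 1 or 2 or 6 °C mouse 1 or 3 (adjusted p of 0.0682 to 0.0747). Mlxipl, the gene of ChREBP, a factor that senses glucose, was not called (0.32, adjusted p = 0.27).

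Among genes of triglyceride handling more rose than fell. Plin2, a coat protein of lipid droplets, rose from 697, 776, 526 and 527 CPM to 1653, 1725, 1796 and 2014 CPM (log2 fold change 1.51, SE 0.14, adjusted p = 1.6e-05). Gpam, which adds the first acyl chain to glycerol phosphate, rose by 1.38 (SE 0.14). Dgat2, which adds the last one, fell from 2325, 2743, 2030 and 2696 CPM to 1138, 1306, 1050 and 1292 CPM (-1.03, SE 0.14, adjusted p = 1.9e-04). In the whole list 10 of 26 rose, 14 were not called, and 2, Dgat2 and Cidea, fell. Of 22 genes of lipolysis and lipid uptake 4 rose and 3 fell. Mgll, the monoglyceride lipase gene, rose by 0.76 (SE 0.10) and Abhd6, another monoglyceride lipase gene, by 0.44 (SE 0.10), whereas Angptl4, whose product blocks lipoprotein lipase, fell by 1.43 (SE 0.23). The lipase genes Lipe and Pnpla2 stood at 0.08 (adjusted p = 0.55) and -0.17 (adjusted p = 0.15), and the uptake genes Lpl and Cd36 at 0.01 (adjusted p = 0.97) and 0.08 (adjusted p = 0.56).

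More genes of sterol synthesis rose than fell, and more genes of cholesterol efflux and apolipoproteins fell than rose. Of 22 genes of cholesterol synthesis and uptake 13 rose and 2 fell (median log2 fold change 0.82). Hsd17b7, a reductase gene of the pathway, stood at 8.66, 8.59, 6.33 and 5.98 CPM at 22 °C and 20.4, 27.2, 24.3 and 23.8 CPM at 6 °C (1.71, SE 0.20, adjusted p = 8.9e-05). The 6 °C libraries all lay above those of 22 °C. The isoprenoid synthase gene Fdps rose by 1.27 (SE 0.17), and Srebf2, the regulator of the pathway, by 0.37 (SE 0.11, adjusted p = 0.022), a call lost without 22 °C mouse 3 or 4 or 6 °C mouse 1 (adjusted p of 0.0534 to 0.0615). Among 16 genes of cholesterol efflux and apolipoproteins 2 rose, 6 fell and 8 were not called, with log2 fold changes from -2.21 to 2.51. Apoe, which carries cholesterol out of cells, fell from 1023, 1617, 1084 and 1473 CPM to 313, 300, 301 and 206 CPM (-2.21, SE 0.17, adjusted p = 5.8e-06). Abca8a, a lipid transporter gene, fell by 1.56 (SE 0.16), and Scarb1, a lipoprotein receptor gene, by 0.97 (SE 0.15).

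Hmgcs1, which encodes the first committed condensing enzyme of this pathway, was picked after its values were seen because its promoter holds a sterol regulatory element. It stood at 363, 295, 188 and 201 CPM at 22 °C and 459, 439, 522 and 476 CPM at 6 °C (0.86, SE 0.24, adjusted p = 0.018). Leaving out 22 °C mouse 4 ended the call (adjusted p = 0.0501), as did leaving out 6 °C mice 1 and 4 (adjusted p = 0.0791). The element TCACNCCAC was searched on both strands of RefSeq promoters (GRCm38.p6, 250 bases before to 50 after the start). It was found in 1 of the 14 members of the list with a promoter in the table and in 1.21% of all 27025 promoters. The promoter of Hmgcs1 (chr13:119690101-119690400, plus strand) is printed with the match, 137 bases before the start, in capitals.
Hmgcs1: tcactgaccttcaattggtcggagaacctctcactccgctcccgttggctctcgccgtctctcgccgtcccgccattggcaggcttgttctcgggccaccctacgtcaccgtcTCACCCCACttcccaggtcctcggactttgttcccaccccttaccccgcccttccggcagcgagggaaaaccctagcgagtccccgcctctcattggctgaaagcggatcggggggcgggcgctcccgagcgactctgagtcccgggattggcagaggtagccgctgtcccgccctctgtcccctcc

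Mitochondrial genes did not move as one. The nuclear genes of the respiratory chain, which pass electrons to oxygen and make ATP, fell: 38 of 72 were lower and 2 higher at 6 °C than at 22 °C, against 17.4% and 16.9% of all genes, with a median log2 fold change of -0.29. In the step from 30 to 22 °C, which shares the 22 °C libraries, 68 of them were higher and 1 lower with a median of 0.63, where 3248 of all genes (21.8%) were higher and 3386 (22.8%) lower. The difference of the steps, that is the second log2 fold change minus the first, was called lower for 64 of the 72 genes and higher for 0, against 2227 of all genes lower (15%). At 6 °C against 30 °C, 47 of them were still higher and 3 lower, where 25.3% of all genes were higher and 31.5% lower (56.8% in either direction).

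The fall was spread over the complexes. In complex I, 19 of 35 genes were lower and 1 higher; in complex III, 3 of 9 were lower; in complex IV, 8 of 12; and in the ATP synthase, 8 of 15. Ndufb3 of complex I was at 255, 328, 254 and 287 CPM at 22 °C and at 163, 177, 179 and 169 CPM at 6 °C (log2 fold change -0.71, SE 0.09, adjusted p = 1.2e-04). Cox6c of complex IV fell by 0.69 (SE 0.09) on the log2 scale and Uqcr11 of complex III by 0.60 (SE 0.09). The mean log2 CPM of the 72 genes was 8.37, 8.56, 8.17 and 8.44 at 22 °C and 8.08, 8.12, 8.18 and 8.08 at 6 °C. The ranges met at 22 °C mouse 3, the deep library; without it 49 genes were lower. Cycs, which encodes cytochrome c, and Ndufab1 were the 2 that rose (named after their values were seen).

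These genes are short, and short genes as a class moved the same way in both steps. Among protein-coding genes of at least 10 CPM, the shortest of 5 classes of exon length had a median log2 fold change of -0.10, and 28.2% of it was called lower; the longest had 0.05 and 12.7%. From 30 to 22 °C the shortest class had a median log2 fold change of 0.22 and the longest 0.03. Of 70 respiratory chain genes of that level, 53 were in the shortest class. With the trend in exon length and GC content removed, 26 of the 72 were lower and 4 higher at 6 °C against 22 °C (median -0.16). The counts of these genes in the first step and in the difference of the steps are given only with the trend left in. Without 6 °C mice 1 and 4, where the fewer libraries also call fewer genes, 16 were lower and 2 higher.

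**Figure D3:**
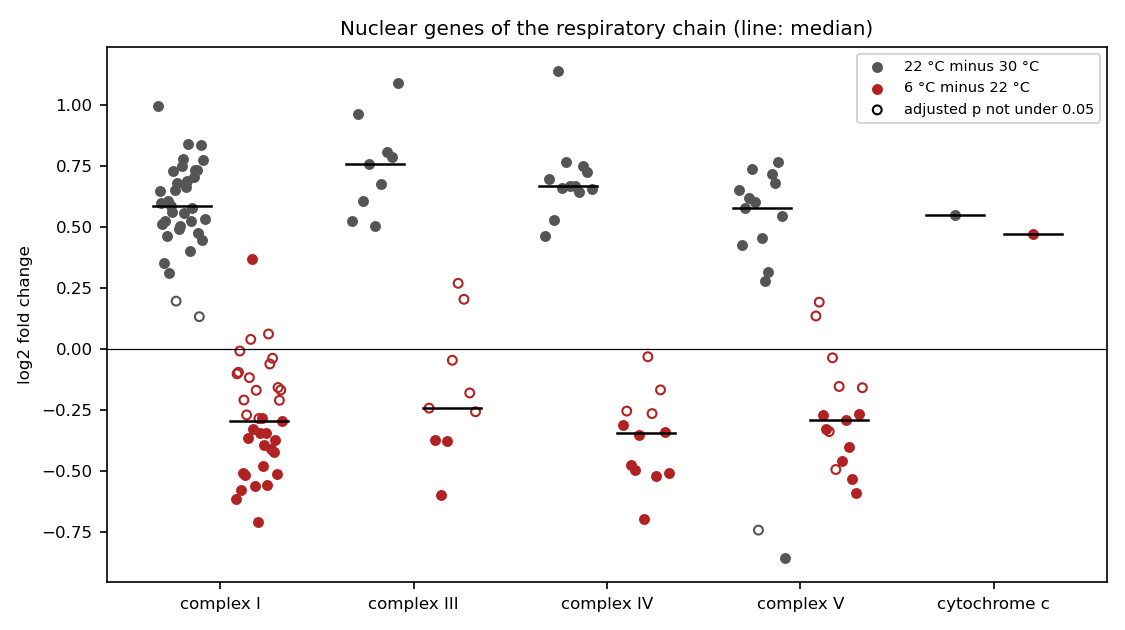
Log2 fold change of each of 72 nuclear genes of the respiratory chain by complex, 22 °C minus 30 °C in grey and 6 °C minus 22 °C in red, with open circles for genes not called and a line for the median. Of the grey points 68 are called above 0 and 1 below it, and of the red points 2 are called above 0 and 38 below it.

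The NRF1 element (GCGCA, any base, GCGC), bound by nuclear respiratory factor 1, was found on either strand of 13 of 60 respiratory chain promoters in the RefSeq table and of 4.8% of all promoters; among 35 members that were called, 7 held it. Of these, Cox6a1 and Atp5k are shown as examples from 2 complexes, picked after their values were seen. Cox6a1 of complex IV fell from 1387, 1613, 1208 and 1479 CPM to 1028, 978, 1009 and 1013 CPM (-0.50, SE 0.09). Atp5k of the ATP synthase fell from 257, 267, 235 and 277 CPM to 160, 200, 186 and 169 CPM (-0.53, SE 0.09). The matches are in capitals in the promoters of Cox6a1 (chr5:115348909-115349208, minus strand) and Atp5k (chr5:108434350-108434649, minus strand).
Cox6a1: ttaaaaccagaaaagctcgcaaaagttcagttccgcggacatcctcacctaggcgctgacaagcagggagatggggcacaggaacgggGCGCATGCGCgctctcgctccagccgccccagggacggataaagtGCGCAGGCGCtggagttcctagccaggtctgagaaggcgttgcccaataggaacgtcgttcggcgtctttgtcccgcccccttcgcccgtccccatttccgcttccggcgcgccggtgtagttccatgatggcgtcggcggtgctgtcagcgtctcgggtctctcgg
Atp5k: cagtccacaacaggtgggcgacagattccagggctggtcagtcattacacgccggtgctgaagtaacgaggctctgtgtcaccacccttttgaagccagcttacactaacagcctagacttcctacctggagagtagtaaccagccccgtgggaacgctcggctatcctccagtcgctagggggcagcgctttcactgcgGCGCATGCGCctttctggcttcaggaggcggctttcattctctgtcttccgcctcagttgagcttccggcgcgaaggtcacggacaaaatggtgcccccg

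Of 13 messenger RNAs of the mitochondrial genome 8 were tested. In the deposited counts mt-Co2, mt-Co3 and mt-Nd4l had 12, 7 and 3 counts over all 12 libraries, and mt-Atp6 and mt-Atp8 had 0. The cause was not tested, and the share of mitochondrial counts given above holds almost none of theirs. Of the 8, mt-Nd4 (-0.42, SE 0.12) and mt-Co1 (-0.37, SE 0.12) fell and mt-Nd1 rose (0.38, SE 0.14). The calls of mt-Nd4 and mt-Co1 were lost with the length and GC trend removed (adjusted p = 0.0707 and 0.112), where 4 of the 8 were higher and 0 lower, and each of the 3 calls was lost without at least 2 single libraries. Breakdown of branched-chain amino acids followed the respiratory chain in direction, with 10 of 22 genes lower and 3 higher. Hsd17b10, a dehydrogenase of the isoleucine route, fell by 0.88 (SE 0.09) and Bcat2, the transaminase that opens the pathway, by 0.63 (SE 0.09), while Pcca, a propionyl-CoA carboxylase subunit gene, rose by 0.74 (SE 0.12). Without 1 of 22 °C mice 1, 2 and 4 or 6 °C mice 2 and 4, the number lower was 5 or 6. Among 24 genes of coenzyme Q, heme and cardiolipin synthesis 4 rose and 4 fell, among them Coq8a, needed to make coenzyme Q (-0.86, SE 0.12), Ppox of heme synthesis (-0.47, SE 0.08) and Pgs1 of cardiolipin synthesis (0.67, SE 0.10).

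Among genes that feed carbon into the mitochondrion, more rose than fell. In fatty acid oxidation 8 of 22 rose, 3 fell and 11 were not called. Acsl5, which activates long-chain fatty acids, was at 539, 517, 287 and 382 CPM at 22 °C and at 1212, 1359, 1477 and 1566 CPM at 6 °C (log2 fold change 1.70, SE 0.17, adjusted p = 3.2e-05). Hadha, a subunit gene of the trifunctional enzyme of beta-oxidation, rose by 0.72 (SE 0.12), and Etfb, a subunit gene of the electron transfer flavoprotein, fell by 0.73 (SE 0.10). Of 32 genes of the TCA cycle and pyruvate dehydrogenase 11 rose, 2 fell and 19 were not called. The pyruvate carrier genes Mpc1 and Mpc2 rose by 0.48 (SE 0.12) and 0.50 (SE 0.11), and Pdp2, which switches pyruvate dehydrogenase on, by 0.64 (SE 0.16). The 11 that rose were 5 without 22 °C mouse 4 or 6 °C mouse 3, 6 without 6 °C mouse 4, and 4 without 6 °C mice 1 and 4 or with the muscle marker level in the model. The difference of the steps was called lower for 12 of the 22 oxidation genes and higher for 1. For the 32 genes it was lower for 14 and higher for 2, where 15% of all genes were lower and 14.3% higher.

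In the peroxisome, where very long chains are shortened, 11 of 27 genes rose and 5 fell. Acaa1a, a thiolase gene, fell from 154, 155, 152 and 151 CPM to 89.6, 84.1, 85.3 and 90.3 CPM with hardly any spread (-0.81, SE 0.06, adjusted p = 4.4e-06). Pecr, a reductase gene, fell by 0.90 (SE 0.14) and Acox2, a branched-chain oxidase gene, rose by 2.01 (SE 0.30). The number that rose was 6 without 6 °C mice 1 and 4. Of 24 genes of mitochondrial biogenesis and dynamics 6 rose and 1 fell, with Letm1, an ion exchanger gene of the inner membrane, at 1.00 (SE 0.10), the helicase gene Twnk of mitochondrial DNA at 0.52 (SE 0.13) and the prohibitin gene Phb at 0.36 (SE 0.08).

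Creatine and calcium cycling also use energy in brown fat. Alpl, tissue-nonspecific alkaline phosphatase, was at 17.1, 16.6, 16.8 and 17.9 CPM at 22 °C and at 50.9, 69.9, 52.9 and 53.7 CPM at 6 °C (log2 fold change 1.73, SE 0.11, adjusted p = 1.7e-06). The calcium pump gene Atp2a2 rose by 0.88 (SE 0.12) and the calcium release channel gene Ryr2 by 2.45 (SE 0.31), from 1.07 to 3.02 CPM at 22 °C to 7.66 to 12.8 CPM at 6 °C. In creatine and calcium cycling 5 of 14 rose and 1 fell. Several of these genes are also expressed in muscle, and the part of muscle RNA in their values was not tested.

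Of the 29 genes in the insulin and mTOR list, 7 rose and 5 fell (3 without 6 °C mouse 1). Mtor, the kinase itself, was at 211, 190, 170 and 174 CPM at 22 °C and at 386, 369, 436 and 491 CPM at 6 °C (1.18, SE 0.11, adjusted p = 1.6e-05). Deptor, which encodes an inhibitor of mTOR, rose by 1.36 (SE 0.21), and Eif4ebp1, a translation repressor that mTOR phosphorylates, fell by 0.72 (SE 0.09).

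Among genes of protein folding and the integrated stress response, rises outnumbered falls. Of 30, 16 rose and 3 fell (median log2 fold change 0.28), and the difference of the steps was called higher for 12 and lower for 1, against 14.3% and 15% of all genes. Canx, the chaperone calnexin of the endoplasmic reticulum, was at 228, 211, 236 and 221 CPM at 22 °C and at 329, 343, 330 and 363 CPM at 6 °C (0.61, SE 0.06, adjusted p = 3.8e-05). Mthfd2, a one-carbon enzyme of the mitochondrion under ATF4 control, rose by 1.39 (SE 0.20). Fgf21, a secreted metabolic hormone, was near the detection limit at 22 °C (0.198, 0.119, 0.0825 and 0.132 CPM) and reached 1.18, 1.50, 2.23 and 0.682 CPM at 6 °C (3.54, SE 0.47, adjusted p = 1.5e-04).

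Of the genes of this list named after their values were seen, Gdf15, another stress hormone, stood at 0.0472 to 0.495 CPM at 22 °C and 2.10 to 5.97 CPM at 6 °C (4.46, SE 0.68), and the factor Atf4 rose by 0.92 (SE 0.22). Xbp1, whose factor drives chaperone genes, fell by 1.46 (SE 0.33), and Phgdh, which opens serine synthesis, by 2.17 (SE 0.41). Asns fell as well (-0.36, adjusted p = 0.0096). The 11 members not called included Hspa5 (0.13), Ddit3 (0.04), Trib3 (0.27), Chac1 (-0.06), Psat1 (-0.10) and Shmt2 (-0.17). Atf3, an immediate early gene of stress, rose from 4.45, 3.34, 7.45 and 5.76 CPM to 36.6, 15.8, 41.8 and 14.5 CPM (2.33, SE 0.40, adjusted p = 0.0015), while Myc, also of the immediate early list, fell by 1.22 (SE 0.24).

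The ATF4 element TGATGNAAT was found, on either strand, in the promoter of 1 of 28 members of the stress list, Fgf21, and in 0.973% of all promoters. The Fgf21 promoter (chr7:45615441-45615740, minus strand) has it on the other strand, 140 bases before the start.
Fgf21: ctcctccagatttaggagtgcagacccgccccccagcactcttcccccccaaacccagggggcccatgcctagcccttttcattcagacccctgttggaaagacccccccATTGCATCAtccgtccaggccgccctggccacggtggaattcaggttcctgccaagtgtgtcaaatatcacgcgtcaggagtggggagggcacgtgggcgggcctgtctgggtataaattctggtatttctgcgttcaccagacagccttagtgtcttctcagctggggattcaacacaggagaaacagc

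Other quality control genes moved less. In the proteasome list, with its regulator Nfe2l1 (0.47, SE 0.09), 8 of 33 rose and 1 fell, and the subunit gene Psmc4 stood at 0.58 (SE 0.08); the 8 were 5 without 22 °C mouse 1 or 6 °C mouse 3 and 13 with the length and GC trend removed. Of 16 heat shock and cold-inducible genes 3 rose and 2 fell. The chaperone gene Hsp90aa1 rose by 0.85 (SE 0.14), while Cirbp, the cold-inducible RNA binding protein, fell from 25 to 37.2 CPM at 22 °C to 11.2 to 22.1 CPM at 6 °C (-0.77, SE 0.20, adjusted p = 0.011). Among 29 antioxidant genes 9 rose and 8 fell. Gclm, the modifier of glutathione synthesis, rose by 0.82 (SE 0.08), the mitochondrial thioredoxin reductase gene Txnrd2 by 0.55 (SE 0.08), and Gpx3, a secreted glutathione peroxidase gene, fell by 1.17 (SE 0.15). Hmox1, heme oxygenase, rose most in this list, from 6.53, 6.50, 9.13 and 5.72 CPM to 96.3, 70.0, 58.9 and 70.8 CPM (3.39, SE 0.56, adjusted p = 0.0016).

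**Figure D4:**
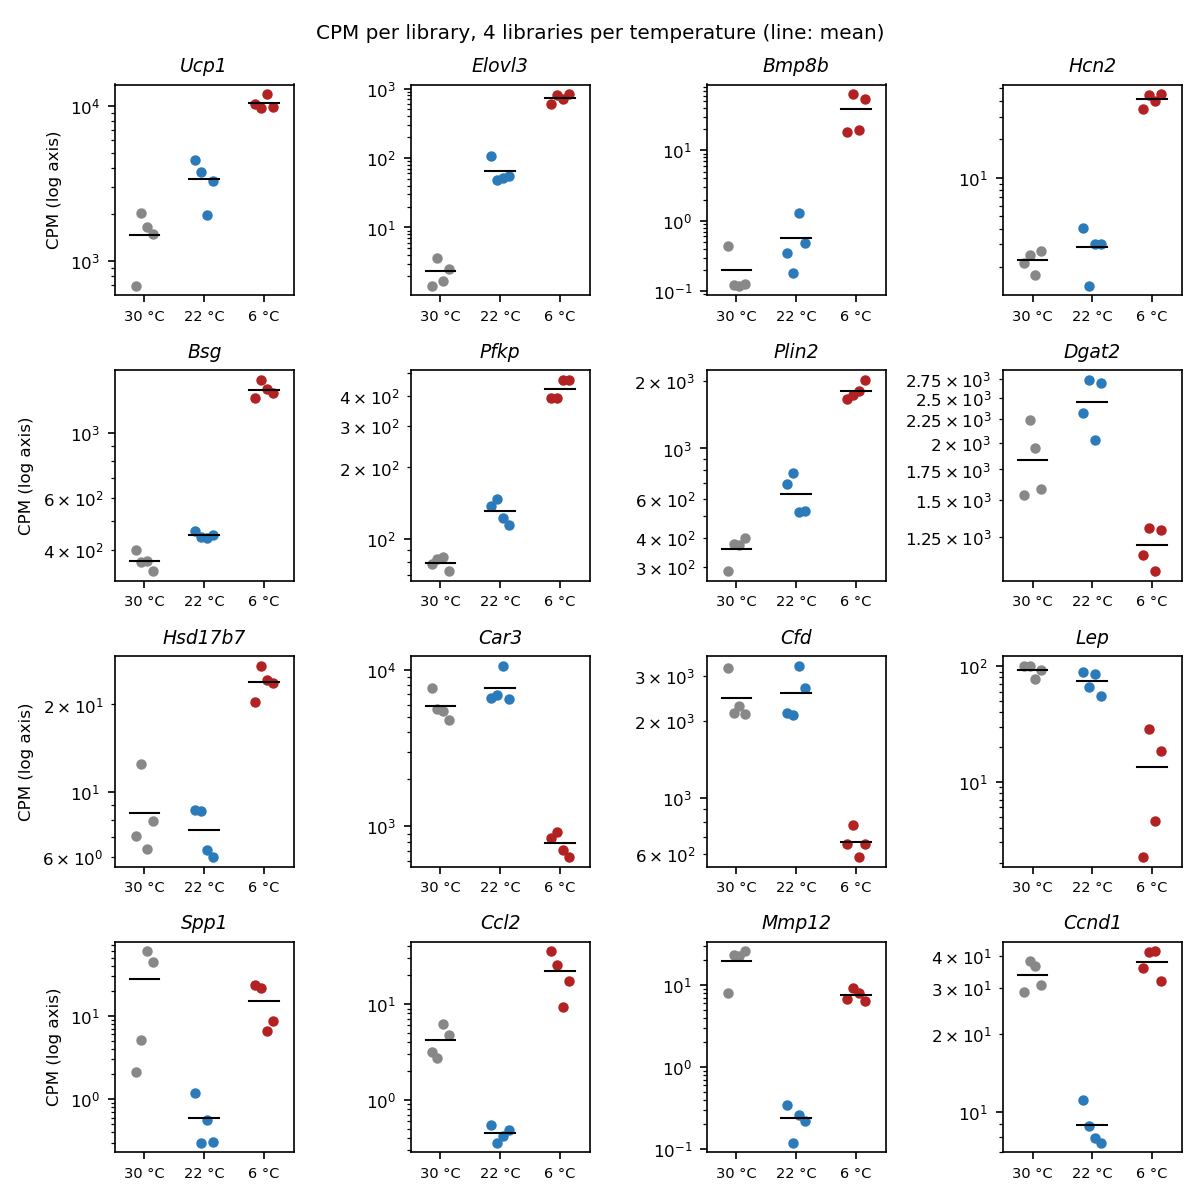
CPM of 16 genes in each library on log axes, by temperature, with a line at the mean of 4 libraries. Ucp1 and Elovl3 climb over both steps, Bmp8b, Hcn2 and Bsg are highest at 6 °C, Car3, Cfd and Lep are lowest there, and Spp1, Ccl2, Mmp12 and Ccnd1 are lowest at 22 °C.

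A set of macrophage genes that was low at 22 °C came back at 6 °C. Macrophages clear dying cells and lipid, and in fat those loaded with lipid express Trem2, Spp1, Gpnmb and Lgals3. Spp1, osteopontin, stood at 1.19, 0.298, 0.554 and 0.308 CPM at 22 °C and at 23.6, 21.7, 6.51 and 8.76 CPM at 6 °C (log2 fold change 4.70, SE 1.19, adjusted p = 0.014). Spp1 was not called with limma voom (adjusted p = 0.081) or without 6 °C mice 1 and 4 (adjusted p = 0.0505). Mmp12, the macrophage elastase, was at 0.346, 0.119, 0.259 and 0.220 CPM at 22 °C and at 6.70, 9.09, 8.10 and 6.35 CPM at 6 °C (4.92, SE 0.42, adjusted p = 1.3e-05). The 4 libraries of 6 °C lay above all of 22 °C for both genes, and for Spp1 mice 1 and 2 were about 3 times as high as mice 3 and 4.

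Of 18 macrophage markers 10 rose and 1 fell (median log2 fold change 1.50); without 6 °C mice 1 and 4 it was 7 and 0. Their summed level was 162 to 232 CPM at 22 °C and 652, 766, 417 and 402 CPM at 6 °C. Lgals3, galectin 3, rose by 4.10 (SE 0.72), Gpnmb by 3.46 (SE 0.78) and the integrin gene Itgax by 1.53 (SE 0.33). Trem2 (3.31, SE 0.92, adjusted p = 0.019) and the lysosomal gene Cd68 (2.63, SE 0.62) rose as well, and the call of Trem2 was lost without 22 °C mouse 3 or 4 (adjusted p = 0.063 and 0.0533) and with limma voom (0.083). Of the markers that many tissue macrophages share, Itgam (2.29, SE 0.55), Fcgr1 (2.89, SE 0.63) and Lyz2 (1.46, SE 0.48) rose. The call of Lyz2 was lost without any one library but 6 °C mouse 4 (adjusted p of 0.0529 to 0.0977). Not called were Csf1r at 0.23 (adjusted p = 0.64), Mertk at 0.17 (0.51), Mrc1 at 0.65 (0.061), Adgre1 at 1.11 (0.073), and the complement genes C1qa, C1qb and C1qc at -0.13 (0.68), 0.43 (0.35) and 0.08 (0.85). Cd163, a marker of resident macrophages, fell by 1.18 (SE 0.41, adjusted p = 0.044), a call lost without any one of 5 libraries (adjusted p of 0.084 to 0.115 without 22 °C mouse 3 or 4 or 6 °C mouse 1, 2 or 3). Adgre1 and Mrc1 were each called in 5 alternatives, among them DESeq2 (adjusted p = 0.027 and 0.012) and the fit without 30 °C mice A and B (0.0046 and 0.015). In this paragraph all 18 markers are given except Spp1 and Mmp12, described above, and all but Lgals3, Gpnmb and Itgax were named after their values were seen.

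The first step had lowered 17 of the 18 markers and raised 0, and the difference of the steps was called higher for 17. At 30 °C the summed level was 603 and 690 CPM in mice 1 and 2 and 1996 and 2193 CPM in mice A and B, the 2 libraries whose mouse numbers are not known. Without mice A and B, 17 markers were still lower at 22 °C than at 30 °C.

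Chemokines and other genes of inflammation were among those with the largest rises. Slfn4, a myeloid schlafen gene, had the largest log2 fold change among the genes that the naming rule admits, from 0.247, 0.179, 0.200 and 0.352 CPM to 44.3, 21.0, 10.4 and 6.72 CPM (6.43, SE 0.86, adjusted p = 3.9e-04). Ccl2 and Ccl7, chemokines that attract monocytes, rose by 5.60 (SE 0.47) and 5.19 (SE 0.46). Ccl2 stood at 0.358 to 0.544 CPM at 22 °C and at 35.6, 25.7, 9.45 and 17.4 CPM at 6 °C. The scavenger receptor gene Msr1 rose by 3.15 (SE 0.49), the protease gene Adam8 by 4.21 (SE 0.81) and Atp6v0d2, a proton pump subunit of phagocytes, by 3.54 (SE 0.88), though Atp6v0d2 was not called with limma voom (adjusted p = 0.0887).

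Interferon response genes rose as well. Of 21, 14 rose and 0 fell (median log2 fold change 1.09). Mx1, an antiviral GTPase, was at 0.643, 0.239, 0.495 and 0.704 CPM at 22 °C and at 12.8, 5.78, 3.08 and 2.36 CPM at 6 °C (3.51, SE 0.66, adjusted p = 0.0025). Ifit1, an RNA sensor, was at 2.92, 3.34, 3.17 and 3.91 CPM at 22 °C and at 19.7, 12.8, 6.33 and 7.76 CPM at 6 °C (1.81, SE 0.34, adjusted p = 0.0022). In both genes 6 °C mouse 1 was highest, and all 6 °C libraries lay above those of 22 °C. Usp18, a brake on interferon signalling, rose by 1.80 (SE 0.29). The 14 were 8 without 22 °C mouse 1 or 2 or 6 °C mouse 1 or 2, and 9 without 22 °C mouse 3. The part of the macrophage level, which moved in the same direction, was not tested.

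The interferon-stimulated response element (GAAA, any 2 bases, GAAA), the site of the interferon-activated complex of STAT and IRF9, was searched on both strands. It was found in 10 of 16 promoters of the list and in 3.49% of all promoters, and in 5 of the 11 called members with a promoter. The members with a promoter that were not called, Rsad2, Ifih1, Ddx58, Bst2 and Gbp2, all held it. The 3 shown are called members with at least 2 matches each, picked after their values were seen: Ifit1 (chr19:34640639-34640938, plus strand), Isg15 (chr4:156200769-156201068, minus strand), a ubiquitin-like modifier gene that rose by 1.66 (SE 0.37), and Oas1a (chr5:120907476-120907775, minus strand), an oligoadenylate synthetase gene that rose by 2.10 (SE 0.43). Capitals mark the matches, which overlap in Isg15 and Oas1a.
Ifit1: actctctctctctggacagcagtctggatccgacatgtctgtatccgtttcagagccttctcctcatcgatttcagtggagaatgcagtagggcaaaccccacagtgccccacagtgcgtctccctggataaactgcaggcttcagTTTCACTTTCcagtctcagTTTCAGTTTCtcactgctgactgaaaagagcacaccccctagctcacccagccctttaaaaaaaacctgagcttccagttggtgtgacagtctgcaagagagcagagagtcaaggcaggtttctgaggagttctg
Isg15: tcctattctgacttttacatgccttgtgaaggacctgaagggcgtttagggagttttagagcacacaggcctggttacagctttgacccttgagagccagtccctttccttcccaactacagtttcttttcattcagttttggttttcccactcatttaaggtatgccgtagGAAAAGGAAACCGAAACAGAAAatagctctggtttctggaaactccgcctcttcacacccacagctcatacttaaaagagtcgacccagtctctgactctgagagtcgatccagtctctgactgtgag
Oas1a: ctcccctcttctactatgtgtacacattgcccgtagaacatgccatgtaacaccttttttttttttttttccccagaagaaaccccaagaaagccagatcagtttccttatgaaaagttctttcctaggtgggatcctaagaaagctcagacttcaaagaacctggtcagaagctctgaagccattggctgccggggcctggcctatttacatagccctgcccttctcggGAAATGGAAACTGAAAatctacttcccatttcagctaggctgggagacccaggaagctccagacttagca

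Antigen presentation went the other way. Of 17 genes 0 rose and 6 fell (median log2 fold change -0.52), and 2 fell without 6 °C mice 1 and 4. The class I gene H2-D1 fell by 0.63 (SE 0.14) and B2m, its light chain, from 491, 489, 556 and 517 CPM to 342, 427, 319 and 276 CPM (-0.59, SE 0.13, adjusted p = 0.0044). The peptide transporter gene Tap2 fell by 0.55 (SE 0.13). Of 14 markers of T and natural killer cells 0 rose and 1, Zap70, fell (-1.30, SE 0.31); their summed level was 4.65 to 7.37 CPM at 22 °C and 2.62 to 6.28 CPM at 6 °C. Of 6 B cell markers 1 fell, Cd79a (-1.12, SE 0.32), and of 8 neutrophil and mast cell markers 2 rose and 1 fell, with Csf3r at 1.87 (SE 0.50).

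Cell division genes rose too. Of 27 proliferation genes 21 rose and 0 fell (median log2 fold change 1.13), after 26 of them had been lower at 22 °C than at 30 °C, and the difference of the steps was called higher for 24. Without 30 °C mice A and B, 23 were lower in the first step, with a median of -1.57 in place of -2.27. Top2a, a topoisomerase of dividing cells, was at 1.48, 1.31, 1.44 and 1.85 CPM at 22 °C and at 4.67, 9.59, 4.46 and 4.56 CPM at 6 °C. Mouse 2 was the highest, and all 4 were above the 22 °C range (1.94, SE 0.34, adjusted p = 0.0012). The cyclin gene Ccna2 and the spindle gene Tpx2 rose by 1.98 (SE 0.29) and 2.00 (SE 0.37). Ccnd1, cyclin D1, was at 11.1, 8.83, 7.94 and 7.61 CPM at 22 °C and at 35.9, 41.2, 41.5 and 32.0 CPM at 6 °C, close to the 29.0 to 38.2 CPM of 30 °C (2.09, SE 0.14, adjusted p = 2.2e-06). In which cells these genes rose cannot be read from whole tissue.

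**Figure D5:**
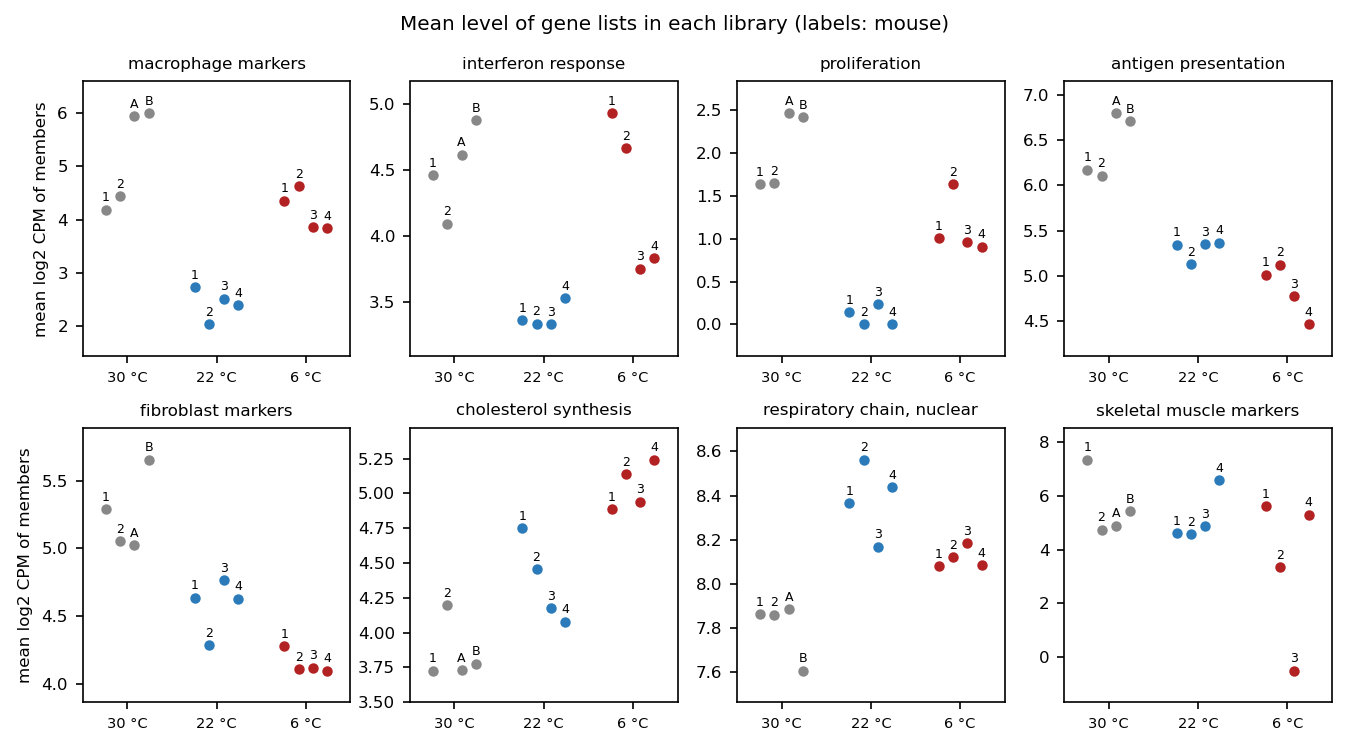
Mean log2 CPM of the tested members of 8 gene lists in each library, labelled by mouse. Macrophage, interferon and proliferation lists are lowest at 22 °C, the 3 highest levels of the respiratory chain are there, and the muscle markers of 6 °C mouse 3, at -0.50, lie far below all others.

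Some abundant genes of the adipocyte fell. Car3, a carbonic anhydrase abundant in fat, was at 6557, 6911, 10640 and 6522 CPM at 22 °C and at 848, 919, 706 and 637 CPM at 6 °C, a 9.85-fold difference (log2 fold change -3.30, SE 0.21, adjusted p = 1.7e-06). Cfd, adipsin, fell from 2136, 2114, 3286 and 2691 CPM to 656, 781, 586 and 660 CPM (-1.93, SE 0.17, adjusted p = 1.2e-05), and Adipoq, adiponectin, by 0.82 (SE 0.10). Lep, leptin, was at 89.7, 65.5, 86.3 and 55.3 CPM at 22 °C and at 2.23, 28.8, 4.57 and 18.6 CPM at 6 °C (-2.45, SE 0.64, adjusted p = 0.015). Within 6 °C, mice 2 and 4 had the higher Lep and also the higher Bmp8b and Hephl1.

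Of 27 secreted factors of fat 8 rose and 8 fell. Among those that fell were the chemokine Cxcl14 (-1.79, SE 0.18) and the growth factor Igf1, from 41.7, 57.8, 101 and 58.4 CPM to 19.6, 25.7, 15.5 and 13.1 CPM (-1.81, SE 0.30, adjusted p = 0.0013). Other genes named for the size of their fall or reversal were Cish, Socs2 and Igfals. Cish, a suppressor of cytokine signalling, fell by 2.60 (SE 0.59), Socs2 by 2.00 (SE 0.46) and Igfals by 1.35 (SE 0.38). The call of Igfals was lost without 22 °C mouse 3 (adjusted p = 0.0527). Of 13 white adipocyte markers 1 rose, the natriuretic peptide receptor gene Npr3 (1.22, SE 0.24), and 4 fell, among them the imprinted gene Nnat (-2.11, SE 0.43). Hcar1, the lactate receptor of adipocytes, fell from 64.8, 89.1, 185 and 79.4 CPM to 14.0, 21.7, 11.3 and 9.44 CPM (-2.89, SE 0.42) and Hcar2, the hydroxybutyrate receptor, by 2.49 (SE 0.39).

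The other genes with the largest falls were Anxa8 (-3.48, SE 0.57), Mycl (-3.30, SE 0.68), Strip2 (-2.99, SE 0.27), Cdsn (-2.80, SE 0.45), Pon1 (-2.68, SE 0.22), Podn (-2.52, SE 0.17), Sytl1 (-2.39, SE 0.19) and Svep1 (-2.23, SE 0.37). Of these, Anxa8 encodes an annexin, Mycl a relative of Myc, Cdsn corneodesmosin, Pon1 a paraoxonase of lipoproteins and Podn a matrix proteoglycan. Among the smallest p of falling genes were also Pla2g16, an adipocyte phospholipase gene (-1.68, SE 0.11), and Hspa12a, an unusual member of the HSP70 family (-1.37, SE 0.10). Of the genes with the largest rises not yet named, Itih4, an acute phase protein gene, was at 1.25 to 3.61 CPM at 22 °C and 22.3 to 87.9 CPM at 6 °C (4.47, SE 0.60), Hephl1, a ferroxidase gene, rose by 3.26 (SE 0.67) and Cend1 by 3.15 (SE 0.25).

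Stromal genes showed a mixed picture. Of 15 fibroblast and preadipocyte markers 1 rose and 8 fell (median log2 fold change -0.48; 5 fell without 6 °C mice 1 and 4), with the proteoglycan genes Lum at -1.24 (SE 0.14) and Dcn at -1.05 (SE 0.13) and Gsn, gelsolin, at -1.23 (SE 0.18). Dcn stood at 220, 232, 245 and 234 CPM at 22 °C and at 114, 109, 127 and 99.0 CPM at 6 °C. Of 30 extracellular matrix genes 3 rose and 4 fell. Loxl1, which cross-links elastin, rose by 1.39 (SE 0.17) and Timp1, a protease inhibitor gene, by 2.37 (SE 0.51), while Mmp2, a gelatinase gene, fell by 1.23 (SE 0.16).

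Vessel genes were divided. Of 22 growth factors and receptors 5 rose and 6 fell: Hif1a, the hypoxia factor gene, rose by 0.71 (SE 0.10), whereas Angpt1, which steadies vessels, fell by 1.90 (SE 0.22) and Vegfb by 0.63 (SE 0.09). Of 17 endothelial markers 3 rose and 1 fell, with Eng at 1.04 (SE 0.12), Pecam1 at 0.34 (SE 0.08) and Tie1 at -0.52 (SE 0.11). Their summed level was 1292 to 1426 CPM at 22 °C and 1460 to 1566 CPM at 6 °C. Of 13 markers of pericytes and smooth muscle 3 rose and 4 fell, and Mcam stood at -1.41 (SE 0.15). Of 9 Schwann cell and nerve markers 1 rose and 1 fell. In the circadian clock 1 of 19 genes rose and 2 fell, among them Per3 (-1.41, SE 0.21), and of 18 immediate early genes 2 rose and 1 fell; the hour at which the mice were killed is not given in the labels.

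Severe cold turned back some changes of the first step and made others of its own. For the difference of the steps 4353 of all genes were called (29.3%), 2126 higher (14.3%) and 2227 lower (15%). Of the genes called in both steps with opposite signs, those with the largest reversals upward were Mmp12, Spp1, Adam8, Lgals3, Atp6v0d2 and Gpnmb. Their log2 fold changes from 30 to 22 °C were -6.31, -5.56, -4.78, -4.38, -5.68 and -4.54, beside 4.92, 4.70, 4.21, 4.10, 3.54 and 3.46 from 22 to 6 °C. The 2 steps share the 22 °C libraries, so a low level there enters both with opposite signs. Without 30 °C mice A and B the first step was -5.97 for Mmp12, -2.61 for Spp1, -2.88 for Adam8, -2.69 for Lgals3, -3.70 for Atp6v0d2 and -2.73 for Gpnmb, all called, with Spp1 at an adjusted p of 0.027. Mice A and B had Spp1 at 59.3 and 43.7 CPM against 2.10 and 5.10 CPM in mice 1 and 2.

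Reversals downward were smaller. Igfals, Socs2, Ces1f, Car14, Cyp2b10 and Hcar2 rose by 1.66, 1.26, 1.22, 1.16, 1.12 and 1.06 from 30 to 22 °C and stood at -1.35, -2.0, -1.29, -1.17, -1.46 and -2.49 from 22 to 6 °C. Ces1f is a carboxylesterase gene, Car14 a carbonic anhydrase gene and Cyp2b10 a xenobiotic cytochrome P450 gene. The call of Ces1f at 6 °C was lost without 22 °C mouse 3 (adjusted p = 0.0532) and without 6 °C mouse 2 (0.0501). Without 30 °C mice A and B the first step was called for 1 of the 6, Car14 (0.83, adjusted p = 0.0030), and not for Igfals (adjusted p = 0.063), Cyp2b10 (0.13), Ces1f (0.16), Socs2 (0.23) or Hcar2 (0.24).

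Other genes were flat in the first step, with a log2 fold change under 0.25 in size, and changed at 6 °C with the difference of the steps called. By size, those higher were Ak4, Maff, Lrrc20, Cela1, Hsd17b7 and Ctsz. Ak4, a mitochondrial adenylate kinase gene, was at 2.43 to 3.52 CPM at 30 °C, at 3.17, 2.03, 3.15 and 1.85 CPM at 22 °C and at 16.8, 14.5, 20.1 and 20.4 CPM at 6 °C (log2 fold change 2.79, SE 0.20; adjusted p of the difference of the steps 3.0e-04). Maff, a small MAF factor gene, rose by 1.84 (SE 0.30), Lrrc20 by 1.74 (SE 0.20), the elastase gene Cela1 by 1.72 (SE 0.21) and Ctsz, cathepsin Z, by 1.67 (SE 0.18). Those lower were Mycl, Podn, Slc16a7, Cfd, Gng7 and Igf1, with values given above except for the G protein subunit gene Gng7, which fell from 15.1, 16.3, 19.0 and 15 CPM to 5.76, 3.34, 4.64 and 4.09 CPM (-1.88, SE 0.16; adjusted p of the difference of the steps 5.4e-04). For each of these 12 genes the libraries of 6 and 22 °C did not overlap, but the genes were picked by the size of that same difference. Without 30 °C mice A and B the first step of 6 of them was over 0.25 in size, at 0.61 for Mycl, 0.46 for Ctsz, -0.42 for Hsd17b7, -0.38 for Lrrc20, -0.32 for Slc16a7 and 0.29 for Igf1, none of them called.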

How the data were processed

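RNA sequencing of interscapular brown fat gave 12 libraries, 4 per temperature. The authors deposited 1 table of raw counts per gene, in whole reads. The submitters' processing notes name FastQC 0.10.1, STAR 2.4.2a, edgeR 3.14.0, GRCm38 and mm10 without their roles, while for the counting program, the annotation release and strand the answer is: not given in the sources used here. Symbols that a spreadsheet had turned into dates, 27 in all, were restored from the gene IDs. Columns were matched to mice by the labels; 2 columns of the 30 °C group match no labelled mouse number and are called mice A and B. The labels give 1 mouse per library, and p-values measure the spread between these mice.

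Genes were filtered with filterByExpr, scaled by TMM and tested in edgeR 4.0.16 (R 4.3.3) with glmQLFit, robust estimation and glmQLFTest on all 12 libraries with temperature as the factor and the spread estimated over the 3 groups together; p-values were adjusted by Benjamini and Hochberg over 14870 genes and called under 0.05. The script was tested on simulated data. The members and the 45 gene lists were chosen with earlier results of these data known. Named genes are, among protein-coding genes of at least 5 CPM on average, called and without overlap between groups, the 15 largest changes and 6 smallest p in each direction; and 6 per direction, of at least 5 CPM, that reversed or were flat in the first step. With no floor or overlap rule, the 3 smallest p of the called members of each list and 25 genes of a panel, whatever their result, are named too; clone and predicted names were left out, and genes outside the rule are marked as such in the text. Alternatives were other scalings and filters, DESeq2 1.42.0, limma 3.58.1 with voom, other sets of libraries, each library left out, the deep library thinned, a muscle covariate and a replicate block. Leaving out 6 °C mice 1 and 4 and removing the trend in exon length and GC content were chosen after seeing the data. Promoters are from RefSeq (GRCm38.p6), 300 bases each; gene positions are from GENCODE (GRCm38). Some genes that the rule names are not reported here.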

Additional observations from a re-analysis of the deposited data

Results flagged for a closer look

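Of 396 groups of 4 libraries checked, 24 values stood apart from the other 3 by more than Dixon's 95% limit for 4 values; chance gives about 1 in 20 groups. Among the libraries themselves, the total of 22 °C mouse 3 was 86438386 counts, and the mean log2 CPM of the muscle markers in 22 °C mouse 4 was 6.58, with Myh4 at 1017 CPM.

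At 22 °C, mouse 1 was high in Elovl3 (105.5 CPM), Elovl6 (1151 CPM) and Trem2 (1.43 CPM). Mouse 2 was high in Scd1 (48690 CPM) and low in C1qb (13.4 CPM). Mouse 3 was high in Car3 (10640 CPM) and Cdsn (47.7 CPM). Mouse 4 was high in Pde4d (109.5 CPM) and low in Gys2 (53.7 CPM).

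At 6 °C, mouse 1 was low in Mgll (1447 CPM). Mouse 2 was high in Alpl (69.9 CPM), Scarb1 (70.5 CPM), Top2a (9.59 CPM) and Nr2f2 (13.3 CPM) and low in Phgdh (0.669 CPM). Mouse 3 was high in Ppargc1a (114 CPM) and Gclm (85.2 CPM). Mouse 4 was high in Fdps (49.1 CPM) and Maff (42.4 CPM) and low in Apoe (206 CPM) and Pygb (76.2 CPM).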

How the results depend on the processing

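Without 6 °C mice 1 and 4, 2994 genes were called between 6 and 22 °C, 1573 higher and 1421 lower, with fewer libraries by construction. Scaled by total counts alone, the difference of the steps was called lower for 1275 genes and higher for 3007. The TMM factors, which that setting leaves out, were 1.105 to 1.227 at 30 °C. They were 0.917 to 0.982 at 22 °C and 0.870 to 0.949 at 6 °C. Why the factors differed by temperature was not tested. Leaving out each of the 8 libraries in turn gave 4150 to 4604 calls between 6 and 22 °C, 2020 to 2301 higher and 2090 to 2370 lower, and 3317 to 4109 for the difference of the steps. In the other alternatives run, the counts over all genes were within 1.5 times those reported. The fits on the 8 libraries alone and with the block give no difference of the steps.

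In this section the named genes are 195 genes of the text that were followed over 24 alternatives. Of these 173 were called, and for 146 the call was never lost in an alternative that tested them. With the filter of 1 CPM in 4 libraries 193 of the 195 were tested, and on the 8 libraries alone or with the block 194. The sign changed for Adrb3, Scd1, C1qa, C1qc and Lpl, all uncalled and near 0. Adrb3 was at 0.00392 with RLE scaling, 0.00409 with DESeq2, 0.0411 with limma voom, 0.0319 without 6 °C mice 1 and 4, 0.0289 with the length and GC trend removed, and -0.184 to 0.162 on leaving out 1 library. Scd1 was at 0.0194 with RLE scaling and with DESeq2, 0.00474 without 30 °C mice A and B, and -0.0661 to 0.0640 on leaving out 1 library. C1qa was at 0.0741 without 6 °C mice 1 and 4 and 0.0656 with the trend removed. C1qc was at -0.0338 with the muscle covariate and -0.0258 to 0.158 on leaving out 1 library. Lpl was at -0.00913 with upper-quartile scaling, -0.0527 with total counts only, -0.0214 with the muscle covariate, -0.0328 with the trend removed and -0.0545 to 0.0946 on leaving out 1 library.

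Mouse numbers did not pair the libraries: same-numbered 22 and 6 °C mice had correlations of their deviations of -0.04, -0.03, 0.05 and 0.23. With mouse number as a replicate block 4241 genes were called, 2177 higher and 2064 lower, and Adrb3 was at 0.0183. Lep (adjusted p = 0.119), Cish (0.14), Hephl1 (0.097), Svep1 (0.0611), Igfals (0.0621), Mycl (0.0534) and Cd79a (0.0524) were among the 9 named genes whose call was lost in that fit, and Fasn (0.00982), Acaca (0.0235) and Adgre1 (0.0178) were called in it. Without 6 °C mice 1 and 4 the named genes whose call was lost were 19, among them B2m (0.0602), Zap70 (0.0533), Xbp1 (0.0715), Socs2 (0.0812) and Pecam1 (0.0505). With 4 mice a group, genes of low counts and small changes are the least certain.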

Other observations

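Within the 6 °C group, 2 sets of genes divided the mice differently. Mice 2 and 4 had Bmp8b at 63.2 and 53.3 CPM, while mice 1 and 3 had 18.5 and 19.5 CPM. For Hephl1 the same pairs gave 43.2 and 39.4 CPM against 11.8 and 14.8 CPM, and for Lep 28.8 and 18.6 CPM against 2.23 and 4.57 CPM. The mean log2 CPM of the macrophage markers was instead higher in mice 1 and 2, at 4.36 and 4.63, than in mice 3 and 4, at 3.85 and 3.84, and that of the interferon genes was 4.93 and 4.66 against 3.76 and 3.84. These are values of 4 mice, with no test.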
